A study of Mus musculus with 12 samples.

Results

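The genes described here are 9 genes by which thyroid hormone and glucocorticoid act on cells, out of 36121 genes measured in mouse spinal cord. They are Dio2, Slco1c1, Thra and Thrb for thyroid hormone, and Hsd11b1, Nr3c1, Nr3c2, Fkbp5 and Tsc22d3 for glucocorticoid. They were taken by symbol, each matched 1 gene of the table, and all 9 passed the filter on low values (TPM of 1 or more on average). The set was chosen because Dio2 and Hsd11b1 were already known to be higher in cKO mice of these data. For these 2 genes the values in cKO are therefore a description, with no test of their differences from cHet or control. Tests on these 2 genes are limited to cHet against control, male against female, and variation between mice within groups.

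RNA of whole spinal cord was sequenced from 12 C57BL6 mice aged 3 months, each a separate animal by its label. The 4 cKO mice carried Gfap-Cre with the genotype Tardbp-fl/fl, the 4 cHet mice carried Gfap-Cre with Tardbp-fl/+, and the 4 control mice were Tardbp-fl/fl without Cre. Every mouse thus had at least 1 floxed allele of Tardbp, the gene of the RNA-binding protein TDP-43, and Cre was present in cKO and cHet but not in control. Cre was driven by Gfap, a gene of astrocytes. The labels name neither the Gfap-Cre line nor the floxed exons. By label, each group held 2 males and 2 females.

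Thyroid hormone reaches the cord mainly as the prohormone T4, which the carrier encoded by Slco1c1 helps to bring across the blood vessel wall and into astrocytes. In the brain and cord, astrocytes and tanycytes hold the type II deiodinase encoded by Dio2, which removes an iodine from T4 to make T3, the form that binds the nuclear receptors encoded by Thra and Thrb. Glucocorticoid is activated in a comparable way. The reductase encoded by Hsd11b1 turns inert dehydrocorticosterone into corticosterone inside cells, and corticosterone binds the glucocorticoid receptor (Nr3c1) and, at lower concentration, the mineralocorticoid receptor (Nr3c2). Fkbp5, a co-chaperone that lowers the receptor's affinity for hormone, and Tsc22d3, which encodes the leucine zipper protein GILZ, are classical genes induced by the glucocorticoid receptor.

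Dio2 (ENSMUSG00000007682) lies on chromosome 12 from 90724552 to 90738438, minus strand, and Hsd11b1 (ENSMUSG00000016194) on chromosome 1 from 193221634 to 193264075, minus strand, in the GENCODE annotation of GRCm38. The RefSeq promoters of both genes (GRCm38.p6, 250 bases before to 50 after the start) are printed because these are the 2 genes that were higher in cKO. The Dio2 window, chr12:90738989-90739288 on the minus strand, starts from a RefSeq start upstream of the GENCODE start. The Hsd11b1 window, chr1:193242311-193242610 on the minus strand, lies inside the GENCODE gene. Capitals mark the cAMP response element TGACGTCA, searched on both strands.
Dio2: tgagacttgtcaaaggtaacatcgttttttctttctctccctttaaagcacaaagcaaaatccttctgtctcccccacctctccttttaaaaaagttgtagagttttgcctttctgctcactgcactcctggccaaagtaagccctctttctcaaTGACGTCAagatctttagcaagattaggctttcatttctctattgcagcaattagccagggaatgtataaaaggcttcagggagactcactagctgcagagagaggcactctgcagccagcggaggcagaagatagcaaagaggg
Hsd11b1: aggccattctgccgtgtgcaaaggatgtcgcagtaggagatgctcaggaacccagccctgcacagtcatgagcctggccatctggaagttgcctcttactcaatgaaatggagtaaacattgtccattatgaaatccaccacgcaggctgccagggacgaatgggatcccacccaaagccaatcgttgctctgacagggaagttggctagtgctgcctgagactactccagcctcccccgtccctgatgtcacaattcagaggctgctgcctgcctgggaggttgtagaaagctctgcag
The Dio2 window held 1 copy of TGACGTCA, whose first base lies 95 bases before the start, and 1.79% of 32851 RefSeq promoters of the same length held it. The Hsd11b1 window held no match to any motif searched. The other motifs were the glucocorticoid hexamer AGAACA (19% of promoters), its palindrome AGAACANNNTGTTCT (0.00913%), the thyroid hormone hexamer AGGTCA (16.3%) and its direct repeat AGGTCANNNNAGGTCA (0.0152%), on both strands; each hexamer is also counted inside its longer motif. Of the 10 RefSeq promoter entries, which covered 7 of the 9 genes, an entry of Thrb held AGGTCA, another entry of Thrb held AGAACA at 2 places and an entry of Tsc22d3 held AGAACA once. None of the 10 held the palindrome or the direct repeat. A match is a stretch of letters and not a measured binding site.

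The targeted gene Tardbp was measured at 140.5 to 151 TPM in cKO, 158 to 178 TPM in cHet and 166 to 181 TPM in control (log2 change cKO against control -0.20, limma adjusted p = 0.0113). Each library had 15188 to 15384 genes with a TPM of at least 1, and Pearson's r between any 2 libraries across genes, which are not independent replicates, was 0.980 to 0.987. The mouse called cHet replicate 4 stood apart from all others in the genes that glucocorticoid induces, as described further on, and results that rest on it are given with and without it. The library of control replicate 1 went against its sex label: labelled male, it held Ddx3y, a gene of the Y chromosome, at 0.288 TPM, against 30.5 to 36.5 TPM in the other 5 mice labelled male. Markers of other cells moved in cKO against control, where limma called 5.75% of all genes higher and 3.25% lower. Of 15 astrocyte markers 6 rose and 2 fell, with sums of 6097 to 6566 TPM in cKO, 5251 to 5453 TPM in cHet and 5096 to 5334 TPM in control. Of 10 oligodendrocyte markers 7 fell (17562 to 19999.5 TPM in cKO, 21153 to 25094 TPM in cHet, 21125 to 22118 TPM in control), and 6 of 8 microglia markers rose (249 to 266 TPM in cKO, 202.3 to 219.9 TPM in cHet, 199.3 to 208 TPM in control). Of 8 neuron markers 3 rose (2982 to 3119 TPM in cKO, 2847 to 3053 TPM in cHet, 2772 to 2942 TPM in control). In each of 2 further lists 1 of 7 markers rose, with sums of 92.8 to 107 TPM in cKO, 79.1 to 97.1 TPM in cHet and 59.0 to 92.5 TPM in control for the ependymal list, and 36.2 to 42.0 TPM in cKO, 30.8 to 39.2 TPM in cHet and 31.0 to 37.3 TPM in control for the meningeal fibroblast list. None of 12 endothelial and pericyte markers passed the test (336 to 374 TPM in cKO, 324 to 403 TPM in cHet, 317 to 347 TPM in control). The part of these shifts in cell markers in the results for any gene described here was not tested, and in whole cord fewer cells of a type and less RNA per cell cannot be told apart.

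The genes of the enzymes that activate each hormone were higher in cKO. Dio2 had 10.1, 10.6, 10.7 and 9.10 TPM in the 4 cKO mice, 5.67, 6.04, 5.75 and 10.5 TPM in the 4 cHet mice, and 5.11, 5.18, 5.25 and 5.57 TPM in the 4 control mice. All cKO mice lay above all control mice, and 3 of the 4 cHet mice lay just above the control mice, while cHet replicate 4 sat among the cKO mice. The mean of Dio2 was 10.1 ± 0.716 TPM in cKO, 6.98 ± 2.32 TPM in cHet and 5.28 ± 0.202 TPM in control (SD, n = 4 each). Values of cKO above every control mouse were found for 10.5% of all genes tested. The means of Dio2 make a ratio of 1.92 between cKO and control, and a log2 difference of 0.88 ± 0.15 (SE). Against cHet the log2 difference was 0.55 ± 0.15, and without cHet replicate 4, where the cHet mean was 5.82 ± 0.190 TPM (SD, n = 3), it was 0.75 ± 0.07. Dio2 shares 100 exonic bases with a predicted gene on the other strand, and the labels do not say whether the libraries kept the strand. It was a gene of low level, with a control mean at the 23.4th percentile of the 15259 genes tested.

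Hsd11b1 had 75.0, 85.2, 81.2 and 72.4 TPM in cKO, 40.3, 43.7, 37.4 and 42.6 TPM in cHet, and 36.7, 33.9, 37.3 and 36.3 TPM in control. The cKO mice stood clear of the other 8 mice, among which the cHet and control values met at 37.4 and 37.3 TPM. Of all genes tested, 10.5% had every cKO mouse above every control mouse, and 6.14% had every cKO mouse above every cHet mouse. The means of Hsd11b1 were 78.5 ± 5.84 TPM in cKO, 41.0 ± 2.78 TPM in cHet and 36.1 ± 1.51 TPM in control (SD, n = 4 each). The log2 difference was 1.11 ± 0.06 (SE) for cKO against control and 0.93 ± 0.06 for cKO against cHet. The value of cHet replicate 4, the mouse with a high Dio2, was 42.6 TPM, within the range of the other 3 cHet mice. As a share of the mean, the SD of Hsd11b1 was 7.44% in cKO, 6.79% in cHet and 4.19% in control. That of Dio2 was 7.08% in cKO, 33.3% in cHet, where cHet replicate 4 lies inside the cKO range, and 3.82% in control.

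**Figure D1:**
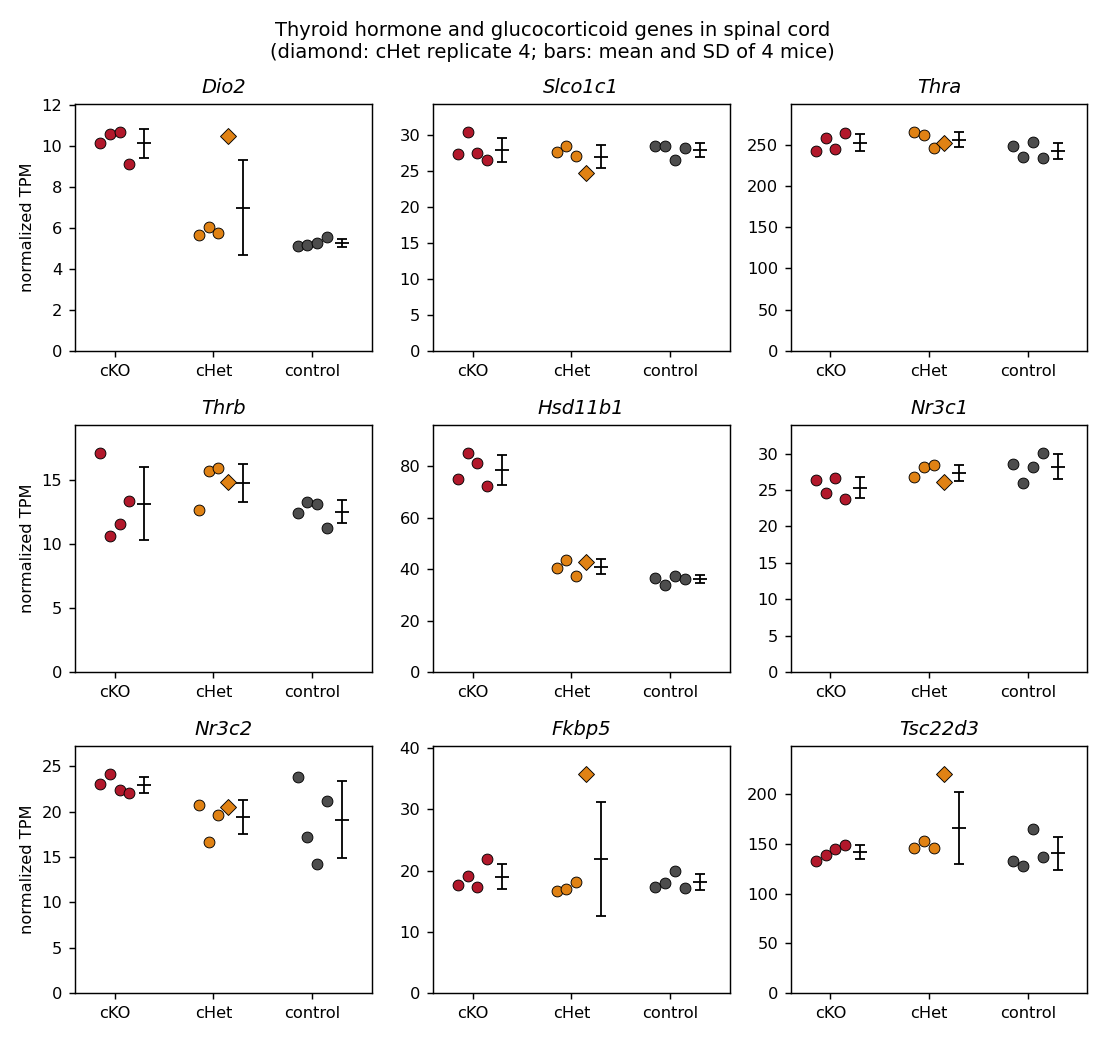
Normalized TPM (y axis) of each of the 9 genes in every mouse (points; the diamond is cHet replicate 4), by genotype group (x axis), with the mean and SD of 4 mice beside each group. Dio2 at 9.10 to 10.7 TPM and Hsd11b1 at 72.4 to 85.2 TPM in cKO lie above every control mouse; cHet replicate 4 is far from its group for Dio2 (10.5 TPM), Fkbp5 (35.8 TPM) and Tsc22d3 (220.2 TPM).

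In cHet, which carries Cre with a single floxed allele, neither enzyme gene passed the test against control. The log2 difference of Hsd11b1 was 0.18 ± 0.06 (SE; limma adjusted p = 0.312, unadjusted p = 0.0112), and all 4 cHet mice lay above all 4 control mice, by a narrow margin. A higher value in every cHet mouse than in every control mouse was found for 4.12% of all genes tested. For Dio2 the cHet mice were likewise all above the control mice, with a log2 difference of 0.33 ± 0.15 (limma adjusted p = 0.449), which was 0.13 ± 0.07 without cHet replicate 4 (limma adjusted p = 0.526). None of the 9 genes was called in cHet against control, where limma called 0% of 15259 genes at an adjusted p under 0.05; at an unadjusted p under 0.05 it found 1 of the 9 genes, Hsd11b1, and 11.3% of all genes. In the authors' deposited table for this comparison none of the 9 had a q under 0.05 by either test, with 0 of 17910 genes under it by the likelihood ratio test and 28, or 0.156%, by the Wald test.

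None of the 7 genes that were not chosen by their values passed the test in cKO against control, where limma called 9% of the genes tested, or in cKO against cHet, where it called 5.01%. At an unadjusted limma p under 0.05, 2 of the 7 genes were found in cKO against control, beside 22.8% of all genes. These were Nr3c1 (limma unadjusted p = 0.0165) and Nr3c2 (limma unadjusted p = 0.0497). None of the 7 had a q under 0.05 in the authors' deposited tables for cKO against control (9.42% of genes by the likelihood ratio test, 10.2% by the Wald test) or cKO against cHet (3.78% and 4.94%). The smallest likelihood ratio q there was 0.0802, for Nr3c1 in cKO against control.

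**Figure D2:**
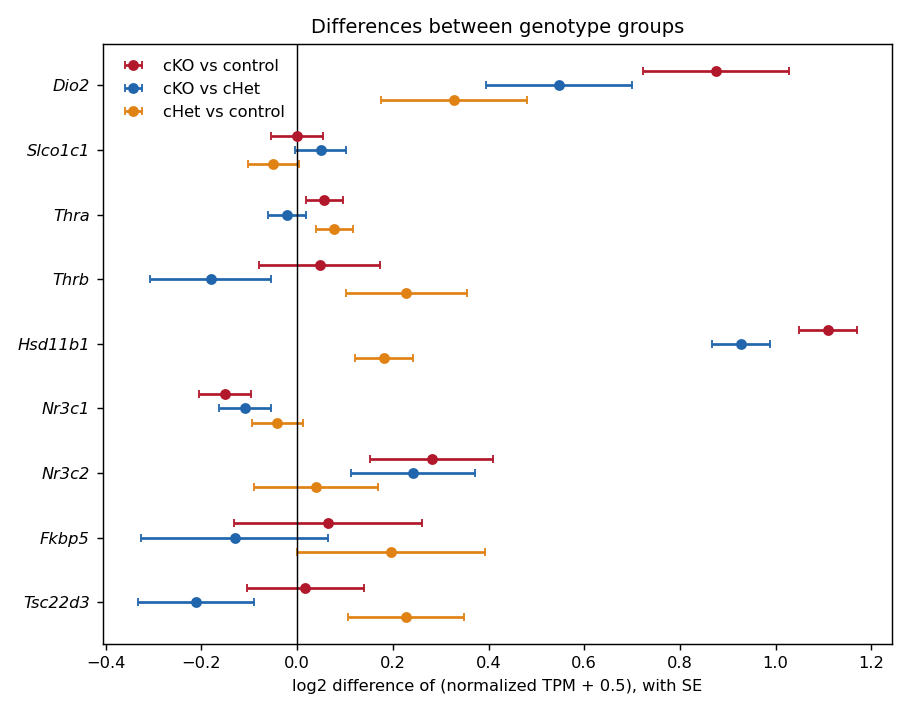
Log2 difference of normalized TPM + 0.5 (x axis) with its limma SE for the 9 genes (y axis) in cKO against control, cKO against cHet and cHet against control. In cKO against control Dio2 (0.88) and Hsd11b1 (1.11) stand far from zero, and the other 7 lie between -0.15 for Nr3c1 and 0.28 for Nr3c2.

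Slco1c1, the T4 carrier of vessels and astrocytes, had 27.3, 30.4, 27.5 and 26.5 TPM in cKO, 27.6, 28.5, 27.1 and 24.7 TPM in cHet, and 28.5, 28.5, 26.5 and 28.1 TPM in control. The groups overlapped throughout, and the lowest value of the 12 was that of cHet replicate 4. The means were 27.9 ± 1.70 TPM in cKO and 27.9 ± 0.920 TPM in control (SD, n = 4 each; log2 difference -0.00 ± 0.05, limma adjusted p = 0.998), and the sign of so small a difference changed when single mice were left out.

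Thra, the receptor gene of highest level in this set, had 242, 258, 245 and 264 TPM in cKO, 265, 261, 245 and 253 TPM in cHet, and 248, 235, 254 and 234 TPM in control. The 3 groups overlapped, and the log2 difference between cKO and control was 0.06 ± 0.04 (SE; limma adjusted p = 0.439). Its control mean was at the 96.6th percentile of the genes tested. Thra shares 263 exonic bases with Nr1d1 on the other strand, with strand unknown as for Dio2, and Nr1d1 was measured at 31.6 to 40.8 TPM in cKO, 30.6 to 38.5 TPM in cHet and 38.4 to 41.3 TPM in control.

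Thrb had 17.1, 10.6, 11.5 and 13.4 TPM in cKO, 12.7, 15.7, 16.0 and 14.9 TPM in cHet, and 12.5, 13.3, 13.2 and 11.3 TPM in control. The cKO mice held both the highest and the lowest value of the 12. The log2 difference between cKO and control was 0.05 ± 0.13 (limma adjusted p = 0.873), and it was -0.08 without cKO replicate 1. Thra exceeded Thrb in TPM, a level per transcript length, by a ratio of 19.9 ± 4.26 in cKO, 17.5 ± 2.41 in cHet and 19.4 ± 1.27 in control (SD, n = 4 each). The values are per gene and do not tell apart the transcripts of Thra or of Thrb. The ratio did not differ detectably between cKO and control (two-sided exact permutation p = 0.971), cKO and cHet (p = 0.429) or cHet and control (p = 0.229).

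The genes around T4 and T3 moved in part. Of 8 tested genes of thyroid hormone transport and binding other than Dio2 and Crym, 2 rose in cKO against control and none fell (limma adjusted p under 0.05; 5.75% of all genes rose and 3.25% fell), with a median log2 difference of 0.13, beside 0.01 over all genes. Slc3a2 and Slc7a5 encode the heavy and light chains of the LAT1 amino acid transporter, which also carries thyroid hormone. Slc3a2 had 131, 130.3, 145 and 139 TPM in cKO against 106, 109, 113 and 90.9 TPM in control, with no overlap (log2 change 0.38 ± 0.06, SE; limma adjusted p = 0.00317). Slc7a5 had 44.6, 41.4, 43.5 and 53.0 TPM in cKO against 36.1, 30.8, 38.2 and 31.2 TPM in control (0.42 ± 0.11, limma adjusted p = 0.0338), again with no overlap. This call was lost in 9 of 22 alternatives, among them 6 that leave out a mouse, with adjusted p values up to 0.0972. Values of cKO above every control mouse, as for Slc3a2 and Slc7a5, were found for 10.5% of all genes tested.

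Crym, which encodes a T3-binding protein of the cytosol, had 1.40, 1.34, 1.79 and 1.58 TPM in cKO against 0.560, 0.810, 0.766 and 0.543 TPM in control. All cKO mice lay above all control mice, as for 10.5% of all genes tested. The means of Crym were 1.53 TPM in cKO, 0.823 TPM in cHet and 0.670 TPM in control. It thus passed the filter on low values only through cKO, the group where it is high. Its log2 difference of 0.80 is therefore a description, and Crym is left out of the counts given for this list. In cKO against cHet 3 of the 8 genes were called, all higher (2.41% of all genes rose and 2.61% fell). Among them were Slc3a2 (log2 change 0.33 ± 0.06, limma adjusted p = 0.00869) and Slc7a5 (0.48 ± 0.11, 0.0242).

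Ttr, the gene of the T4 carrier transthyretin, whose usual source in the nervous system is the choroid plexus, is named here after its values were seen. It had 12.9, 13.3, 14.4 and 14.6 TPM in cKO, 1.65, 6.70, 0.105 and 14.9 TPM in cHet, and 1.55, 7.89, 2.40 and 1.32 TPM in control. The 4 cKO mice and cHet replicate 4 were above the other 7 mice, as they were for Dio2. Values among those 7 were scattered, and limma did not call Ttr in cKO against control (log2 difference 2.21 ± 0.81, adjusted p = 0.119). The deiodinase genes Dio1 and Dio3, the second of which encodes the enzyme that inactivates T4 and T3, averaged 0.0588 and 0.0178 TPM over the 12 mice and were not tested.

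Lists of genes tied to T3 action were read beside the shares over all genes in cKO against control, 5.75% higher and 3.25% lower. Of 10 thyroid hormone receptor and cofactor genes none passed the test in cKO against control; the 2 with the smallest p were Med1 (log2 difference -0.21 ± 0.09, limma adjusted p = 0.180) and Ncoa2 (-0.17 ± 0.08, 0.231). Of 10 tested genes known to be raised by T3 in rodent cerebral cortex, 2 rose and 1 fell, with a median log2 difference of 0.02, and of 7 known to be lowered by T3 none passed (median -0.00). Nrgn, a calmodulin-binding protein gene of neurons, had 47.4, 43.5, 48.6 and 43.6 TPM in cKO against 38.5, 38.2, 38.7 and 38.4 TPM in control (log2 change 0.25 ± 0.07, limma adjusted p = 0.0352). Its cKO mice were all above the control mice, as for 10.5% of all genes tested. Abcd2, a peroxisomal transporter gene, had a log2 change of 0.20 ± 0.05 (limma adjusted p = 0.0228). The calls of Nrgn and Abcd2 were lost in 11 and 6 of 22 alternatives. Itih3, which encodes a heavy chain of inter-alpha-trypsin inhibitor, went the other way, at 52.6, 50.1, 53.1 and 61.2 TPM in cKO against 108, 136, 132 and 118 TPM in control (log2 change -1.18 ± 0.08, limma adjusted p = 1.41e-05).

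Of the T3-lowered genes, Cirbp (log2 difference -0.14 ± 0.09, limma adjusted p = 0.378) and Marcksl1 (-0.16 ± 0.11, 0.421) had the smallest p. Klf9 and Hr, 2 classical direct targets of the T3 receptors that are named after their values were seen, did not pass in cKO against control: Klf9 averaged 49.9 ± 4.61 TPM in cKO and 49.8 ± 3.74 TPM in control, and Hr 14.0 ± 1.53 TPM in cKO and 14.8 ± 0.777 TPM in control (SD, n = 4 each). Klf9 is also induced by glucocorticoid. Mbp, a T3-raised gene also named after its values were seen, had 10307 to 11749 TPM in cKO and 11836 to 12682 TPM in control. It was not called (log2 difference -0.14 ± 0.05, limma adjusted p = 0.107). Values of cKO below every control mouse were found for 6.59% of all genes tested. In cKO against cHet, 1 T3-raised gene rose and 2 fell, Mbp among them (2.41% and 2.61% of all genes). Without cHet replicate 4, 1 rose and 1 fell.

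On the glucocorticoid side, the receptor genes had small differences in opposite directions. Nr3c1 had 26.4, 24.5, 26.6 and 23.7 TPM in cKO, 26.8, 28.2, 28.4 and 26.1 TPM in cHet, and 28.6, 26.0, 28.1 and 30.1 TPM in control. The cKO values were the lowest on average, with 2 of the 4 inside the control range (log2 difference -0.15 ± 0.05, SE; limma adjusted p = 0.111). After the libraries were set to the same sum without mitochondrially encoded genes, Nr3c1 was called lower in cKO (-0.20, limma adjusted p = 0.0402).

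Nr3c2 had 23.1, 24.2, 22.4 and 22.1 TPM in cKO, 20.8, 16.7, 19.6 and 20.5 TPM in cHet, and 23.9, 17.2, 14.3 and 21.2 TPM in control. The cKO mice all lay above the cHet mice and above 3 of the 4 control mice, and the control mice were the most scattered, with an SD of 22.2% of their mean. Values of cKO above every cHet mouse were found for 6.14% of all genes tested. The log2 difference of Nr3c2 between cKO and control was 0.28 ± 0.13 (limma adjusted p = 0.219). Without control replicate 1 it was 0.39 ± 0.11 (limma adjusted p = 0.0658). Nr3c2 shares 247 exonic bases with a predicted gene on the other strand, and strand was not given, as for Thra.

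The ratio of Nr3c1 to Nr3c2, both in TPM, was 1.14, 1.02, 1.19 and 1.08 in cKO, 1.29, 1.69, 1.45 and 1.27 in cHet, and 1.20, 1.51, 1.97 and 1.42 in control. The 4 cKO mice had the lowest ratios of the 12, with the highest cKO mouse at 1.19 just under the lowest control mouse at 1.20. The mean was 1.10 ± 0.0754 in cKO, 1.42 ± 0.193 in cHet and 1.52 ± 0.324 in control (SD, n = 4 each). The two-sided exact permutation p was 0.0286 for cKO against control and for cKO against cHet, which is the smallest p that 4 against 4 mice allow. Adjusted over the 6 ratio tests it was 0.0857 for both, and the 2 comparisons share the cKO mice. An adjusted value under 0.05 would have needed the Thra to Thrb ratio to reach this smallest p as well. The adjusted values therefore cannot decide whether the ratio of Nr3c1 to Nr3c2 differs. The ratio in cHet against control gave an exact permutation p of 0.714.

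**Figure D3:**
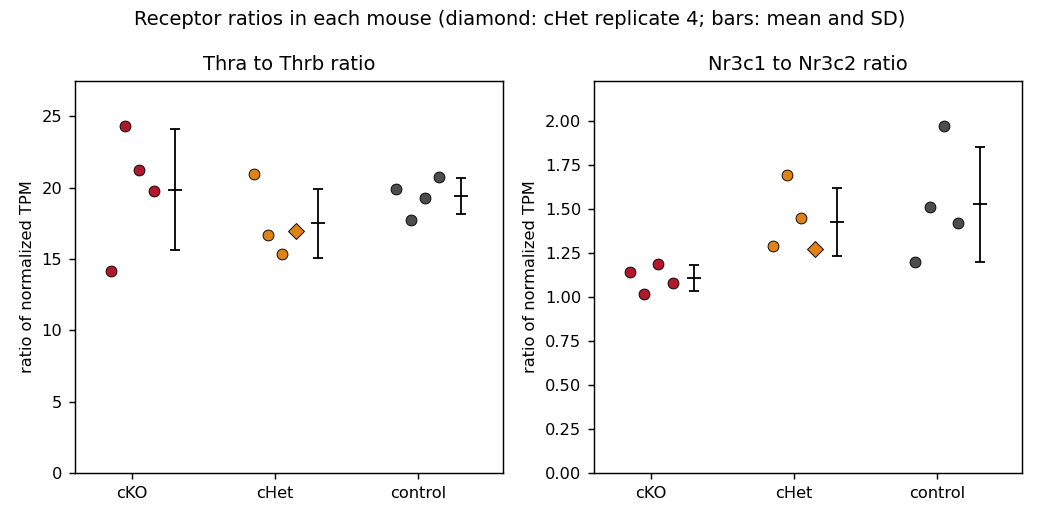
Ratio of normalized TPM (y axis) of Thra to Thrb (left) and of Nr3c1 to Nr3c2 (right) in each mouse (points; the diamond is cHet replicate 4), by genotype group (x axis), with mean and SD. The Thra to Thrb ratios overlap between groups, and the Nr3c1 to Nr3c2 ratios of cKO, 1.02 to 1.19, lie below those of all other mice.

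Of 7 tested genes of glucocorticoid metabolism and efflux other than Hsd11b1, none rose and 1 fell in cKO against control (5.75% of all genes rose and 3.25% fell), with a median log2 difference of -0.13. The gene called was Srd5a1, whose reductase begins the breakdown of steroids and makes neurosteroids, with 6.96, 7.81, 9.57 and 7.64 TPM in cKO against 11.1, 11.1, 9.30 and 9.95 TPM in control. The groups overlapped at 1 mouse each, and the call was marginal (log2 change -0.36 ± 0.10, limma adjusted p = 0.0496) and lost in 15 of 22 alternatives. H6pd, named after its values were seen because its enzyme supplies the NADPH that the Hsd11b1 reductase uses, averaged 2.86 ± 0.150 TPM in cKO and 3.65 ± 0.824 TPM in control (SD, n = 4 each; limma adjusted p = 0.395). Hsd11b2, which encodes the enzyme that inactivates corticosterone, averaged 0.170 TPM over the 12 mice and was not tested. Of 9 genes of corticosteroid receptors and their chaperones 2 rose and none fell, beside the same shares over all genes (median log2 difference 0.08): Hspa8, an Hsp70 chaperone gene (0.17 ± 0.04, limma adjusted p = 0.0213), and Stip1, which links Hsp70 to Hsp90 (0.13 ± 0.03, 0.0334), calls lost in 6 and 9 of 22 alternatives. In cKO against cHet none of these 9 passed. Hspa8 and Stip1 were as high in cHet, with log2 differences against control of 0.21 ± 0.04 and 0.11 ± 0.03. Neither was called there (limma adjusted p = 0.129 and 0.268).

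Of the genes that the glucocorticoid receptor induces, none rose in cKO with all 12 mice in the fit. Fkbp5 had 17.7, 19.1, 17.3 and 21.8 TPM in cKO, 16.7, 16.9, 18.2 and 35.8 TPM in cHet, and 17.3, 17.9, 20.0 and 17.1 TPM in control. Apart from cHet replicate 4, all mice lay between 16.7 and 21.8 TPM, and the log2 difference between cKO and control was 0.06 ± 0.20 (SE; limma adjusted p = 0.891). Without cHet replicate 4 the SE narrowed and the difference kept its size, 0.06 ± 0.08 (limma adjusted p = 0.674). Fkbp5 in cKO against cHet had a log2 difference of -0.13 with that mouse and 0.13 without it, neither called.

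Tsc22d3 had 133, 139, 145 and 149 TPM in cKO, 146, 153, 146 and 220.2 TPM in cHet, and 132, 128, 165 and 136 TPM in control. The cKO values lay within the control range (log2 difference 0.02 ± 0.12, limma adjusted p = 0.955), and cHet replicate 4 was again the highest of the 12 mice. With the group means removed, Pearson's r between Fkbp5 and Tsc22d3 over the 12 mice was 0.900 (permutation p = 0.0171, 0.0512 adjusted over 3 pairs of genes) and Spearman's rho was 0.790 (permutation p = 0.0284, adjusted 0.0852), so neither passed after adjustment. Without cHet replicate 4, r was 0.590 over 11 mice (permutation p = 0.0766), and without the 2 mice farthest from the median, cHet replicate 4 and cKO replicate 4, it was 0.593 over 10.

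Of 20 glucocorticoid-induced genes, none rose and 1 fell in cKO against control, counts near the shares over all genes (5.75% rose and 3.25% fell), with a median log2 difference of 0.04, beside 0.01 over all genes. The gene that fell was Glul, the gene of glutamine synthetase and a marker of astrocytes, with 817, 780.0, 784 and 799 TPM in cKO against 1027, 1012, 1106 and 1000.2 TPM in control (log2 change -0.38 ± 0.04, limma adjusted p = 0.000337). Glul also fell in cKO against cHet, where it was the only gene of the 20 called. Without cHet replicate 4, 2 more genes were called, both higher in cKO: Cdkn1a, a cell cycle inhibitor gene (0.31 ± 0.07, limma adjusted p = 0.0195), and the metallothionein gene Mt1 (0.29 ± 0.07, 0.0304). That fit called 9.9% of all genes, and neither gene was called there in cKO against cHet. In the remaining cHet mice Cdkn1a averaged 26.1 TPM, beside 28.9 TPM in cKO and 23.3 TPM in control. Mt1 averaged 1753 TPM in those cHet mice, beside 1836 TPM in cKO and 1504 TPM in control. With cHet replicate 4 in the fit, the limma adjusted p values of Cdkn1a and Mt1 were 0.225 and 0.0795.

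The mouse called cHet replicate 4 had the highest value of the 12 mice in 18 of the 20 genes, beside 9.42% of all genes tested for this mouse. This was noticed in the values and is given as a description. The exceptions were Per1, highest in cKO replicate 4, and Dusp1, highest in cHet replicate 1. The median deviation of the 20 genes from their mean over 12 mice was 0.67 (log2) in cHet replicate 4, and the next mouse was control replicate 3 with 0.20; over all genes the median for cHet replicate 4 was -0.01. The other 10 mice lay between -0.26 and 0.09 for these 20 genes.

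Some of the 18 genes are named here after their values were seen. Zbtb16, a transcription factor gene, had 30.1 TPM in cHet replicate 4, against at most 8.67 TPM in any other mouse. Plin4, a lipid droplet gene, had 9.90 TPM there and at most 3.05 TPM elsewhere. Sgk1, a kinase gene and a classical target of both corticosteroid receptors, had 319.7 TPM there and at most 217 TPM elsewhere, the highest of the others being control replicate 3. Hif3a had 12.1 TPM there and at most 6.88 TPM elsewhere, and Nfkbia, the gene of an inhibitor of NF-kappa-B, 55.9 TPM there and at most 36.6 TPM elsewhere. Klf9 had 74.7 TPM there and at most 55.6 TPM elsewhere. In the same mouse 7 of 10 oligodendrocyte markers were the highest of the 12, with a sum of 25094 TPM, the largest of all mice; the part of this in the result was not tested.

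**Figure D4:**
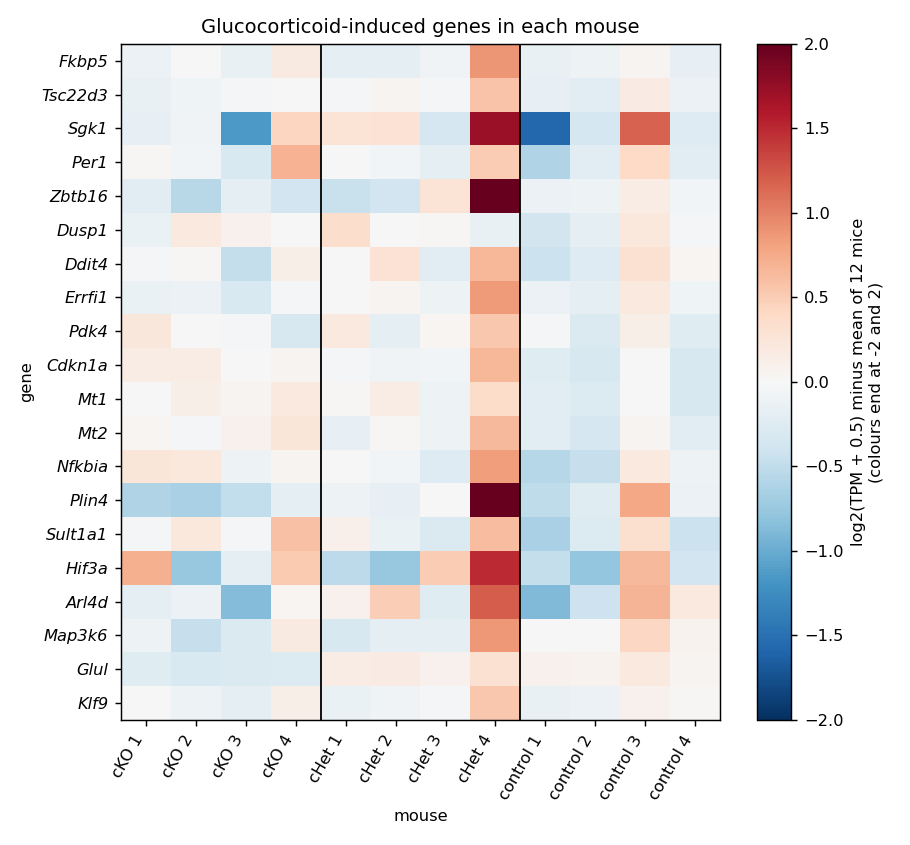
Log2(TPM + 0.5) of the 20 glucocorticoid-induced genes (y axis) in each mouse (x axis) minus the gene's mean over 12 mice, shown as colour that ends at -2 and 2. The column of cHet replicate 4 is red in nearly all genes, with a median of 0.67; Glul is pale blue in the 4 cKO mice.

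Dio2 was high in 5 mice, which differed in the other genes of the set. In the 4 cKO mice Dio2 stood at 9.10 to 10.7 TPM with Fkbp5 at 17.3 to 21.8 TPM and Hsd11b1 at 72.4 to 85.2 TPM. In cHet replicate 4 Dio2 stood at 10.5 TPM with Fkbp5 at 35.8 TPM and Hsd11b1 at 42.6 TPM. With group means removed, Dio2 and Hsd11b1 had Pearson's r = 0.419 over 12 mice (permutation p = 0.303) and Spearman's rho = 0.483 (permutation p = 0.159). Without cHet replicate 4, r was 0.669 over 11 mice (permutation p = 0.0479, not adjusted over the 3 pairs). Of 13 alternatives, only this 1 gave a permutation p under 0.05. Without the 2 mice farthest from the median of Dio2, r was 0.681. Dio2 and Slco1c1 had r = -0.477 (permutation p = 0.287) and rho = -0.364 (permutation p = 0.30), and r was 0.525 without cHet replicate 4, so the sign rests on that mouse. Adjusted over the 3 pairs, the permutation p of r over all 12 mice was 0.303 for both pairs with Dio2.

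**Figure D5:**
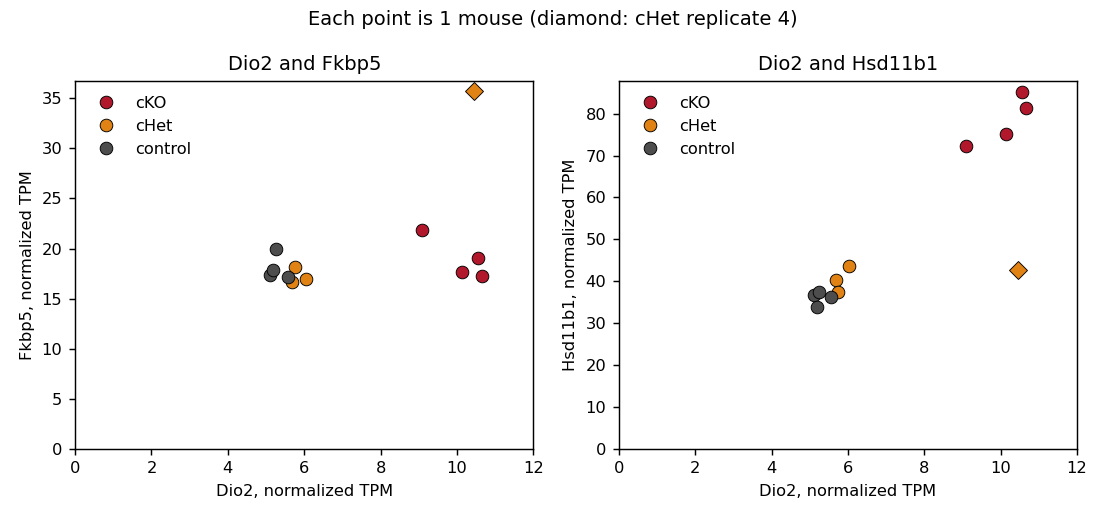
Normalized TPM of Fkbp5 (left) and Hsd11b1 (right) on the y axes against normalized TPM of Dio2 on the x axes, each point a mouse and the diamond cHet replicate 4. The cKO mice have high Dio2 with Fkbp5 of 17.3 to 21.8 TPM and high Hsd11b1; cHet replicate 4 has high Dio2 (10.5 TPM) and Fkbp5 (35.8 TPM) with Hsd11b1 at 42.6 TPM.

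The genes whose levels followed Dio2 most closely over the 12 mice, by the root mean square difference of log2 values centred on each gene's mean, were Ucp3 (0.136), Pgpep1 (0.160), Smim3 (0.163), Id1 (0.172) and Klhdc7a (0.173). Genes with names of clones or predicted genes were left out of this ranking and of that for Hsd11b1. Ucp3, the gene of a mitochondrial uncoupling protein, averaged 10.2 ± 0.235 TPM in cKO, 7.09 ± 1.18 TPM in cHet and 6.03 ± 0.474 TPM in control (SD, n = 4 each), with 8.86 TPM in cHet replicate 4. Smim3 had 13.0 TPM in cHet replicate 4, above 5.52 to 6.43 TPM in the other 3 cHet mice. Among the 5 genes nearest to Hsd11b1 were Kcne1l (0.140), Lag3 (0.145), Sod3 (0.149) and Igfbp2 (0.152). Sod3, the gene of extracellular superoxide dismutase, averaged 9.34 ± 0.418 TPM in cKO, 5.23 ± 0.560 TPM in cHet and 4.95 ± 0.499 TPM in control (SD, n = 4 each). The genes nearest to Dio2 and to Hsd11b1 were 5 different genes each, and all were picked for this likeness.

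Between mice labelled male and female, none of the 9 genes was called (limma with genotype in the fit; 0% of 15259 genes called and 5.91% at an unadjusted p under 0.05, none of the 9 genes among them). The log2 difference, male against female, was -0.18 ± 0.12 (SE) for Dio2 (limma adjusted p = 0.893) and 0.01 ± 0.05 for Hsd11b1 (0.989). Without control replicate 1, whose library went against its sex label, 10 genes were called (0.0655%), none of them among the 9, and Dio2 stood at -0.19 ± 0.13. Without cHet replicate 4, a female by label, Dio2 stood at -0.05 ± 0.06. For the 7 genes not chosen by their values, no interaction of sex with cKO against control was called by limma (0.00655% of all genes called), in a design with 2 mice of each labelled sex per group. This fit counts control replicate 1 as male, against its Ddx3y level, so it cannot decide whether such an interaction exists. Leaving out control replicate 1 left the log2 difference of cKO against control at 0.86 for Dio2 and 1.12 for Hsd11b1.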

How the data were processed

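Per the submitters' processing notes, the authors used kallisto 0.44.0 and sleuth 0.30.0 with GRCm38. The expression signal deposited by the authors is normalized TPM per gene and mouse; library sums differ (954895 to 1048381), and TPM keeps no read depth, so no counting interval is given. The authors also deposited p-values and q-values of 2 tests for each pair of groups.

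From the TPM, log2(TPM + 0.5) was fitted with limma 3.58.1 (R 4.3.3; eBayes with trend, two-sided) over all 12 mice, for the 15259 genes averaging 1 TPM or more, with Benjamini-Hochberg adjustment over these genes and calls at 0.05. Fold changes are on this scale and understate the change of low genes. "Rose" and "fell" are used of called genes only. Ratios were tested by exact permutation over 70 splits of 8 mice, and correlations by permutation (scipy 1.17.1, 100000 resamples) after removal of group means. P-values weigh a difference or a correlation against the spread between mice. In limma this spread was estimated over all groups together and moderated over all genes, so cHet replicate 4 also enters the error of cKO against control. The limma step was tested on simulated data.

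The 9 genes, the lists around them and the rule for naming genes were chosen with earlier results of these data known. Named are the 9 genes, Tardbp, the called genes of each list in cKO against control (the 2 with the smallest p where none was called) and the 5 genes nearest in pattern to Dio2 and to Hsd11b1 (clones and predicted genes left out). A few genes that this would name are not reported here and remain in the counts. Coordinates come from GENCODE M21. Alternatives were 2 pseudocounts, 2 filters, 2 scalings, no trend, sex as a covariate, summed duplicate symbols, a fit of the 2 groups compared, and leaving out each mouse; the run without control replicate 1 for sex and the counts without cHet replicate 4 were chosen after seeing the data.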

Additional observations from a re-analysis of the deposited data

Results flagged for a closer look

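In groups of 4 mice, a value was picked out where its gap to the nearest other mouse, over the group's range, exceeded Dixon's 95% critical value. Of 75 groups checked, 4 were picked out; chance gives about 1 in 20. Of these 4, 3 are in the same mouse, cHet replicate 4. Dio2 was 10.46 TPM there, against 5.67 to 6.04 TPM in the other 3 cHet mice. Fkbp5 was 35.77 TPM there, against 16.7 to 18.2 TPM, and Tsc22d3 was 220.2 TPM, against 146 to 153 TPM. Over all genes tested, a value that far above the other 3 mice of the group was found in this mouse for 1.17%. The fourth was Ncoa2, the gene of a coactivator of nuclear receptors, at 18.93 TPM in cHet replicate 3, against 22.3 to 22.6 TPM in the other 3 cHet mice.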

How the results depend on the processing

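No paired analysis was possible because the labels give mouse IDs and no replicate numbers shared between groups. Dio2 and Hsd11b1 kept their higher values in cKO in all 22 alternatives, with a log2 difference against control of 0.82 to 0.92 for Dio2 and 1.06 to 1.15 for Hsd11b1. None of the other 7 genes was called in any alternative but 1: with libraries set to the same sum without mitochondrially encoded genes, 1 gene was called in cKO against control, Nr3c1. That scaling also turned the sign of 3 uncalled differences, to -0.003355 for Thrb and -0.03524 for Tsc22d3 in cKO against control and to -0.01292 for Nr3c2 in cHet against control. Over all genes it moved the calls in cKO against control to 473 higher and 822 lower, beside 878 higher and 496 lower as reported, and median-of-ratios scaling gave 734 higher and 545 lower. The 10 list genes called in cKO against control became 6 with no filter on low values and 6 without the trend. They became 4 to 11 when 1 mouse was left out, the fewest without cKO replicate 2 or cKO replicate 3. These counts include Crym, which passed the filter only through cKO. Calls over all genes also fell, from 1374 of 15259 to 1049 of 26723 with no filter and to 1162 of 15259 without the trend. The cause was not tested.

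Leaving out each mouse in turn, the log2 difference between cKO and control ranged from -0.08253 to 0.1395 for Thrb, -0.04092 to 0.02432 for Slco1c1, -0.003355 to 0.1119 for Fkbp5 and -0.02481 to 0.09787 for Tsc22d3. Fkbp5 ranged from -0.2322 to 0.1267 in cKO against cHet and from -0.06201 to 0.2969 in cHet against control, each with the turn of sign without cHet replicate 4. Nr3c2 in cHet against control ranged from -0.08832 to 0.1518. The log2 difference of the ratio of Thra to Thrb in cKO against control ranged from -0.0982 to 0.1623. That of Nr3c1 to Nr3c2 ranged from -0.5505 to -0.3116 in cKO against control, from -0.4104 to -0.2747 in cKO against cHet and from -0.1909 to 0.04801 in cHet against control; both comparisons with cKO gave an exact permutation p of 0.0286 to 0.0571. The correlation ranged from 0.5895 to 0.9445 for Fkbp5 with Tsc22d3, from 0.2932 to 0.6691 for Dio2 with Hsd11b1 and from -0.6955 to 0.5253 for Dio2 with Slco1c1, the ends of 0.5895, 0.6691 and 0.5253 being without cHet replicate 4. TPM keeps no depth, so what read depth limits cannot be given.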
